A study of Mus musculus with 10 samples.

Results

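Mitosis was followed in granulocyte-macrophage progenitors (GMPs) through 40 named genes, 40 of the 51717 genes summed from the deposited transcript estimates. The set was written down by function, with earlier results of these data known. It held the mitotic cyclins with their kinase, the other mitotic kinases, and the genes of the kinetochore, the spindle and cell division. All 40 passed the filter on low counts and stood among the 12381 genes tested. The lowest estimated read number of any of them in any sample was 81.

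GMPs are dividing bone marrow progenitors that give rise to neutrophils and monocytes. The 10 samples came from mixed bone marrow chimeras, in which irradiated recipients carried CD45.1 wild-type marrow together with CD45.2 donor marrow, and RNA came from the sorted CD45.2+ GMPs. The 5 WT samples had the genotype ROSA26 CreER+/- and the 5 recent KO samples Mpc2fl/fl; ROSA26 CreER+/-, and all were labelled C57Bl6/N and male. Both groups therefore carried the tamoxifen-activated Cre, which the ROSA26 promoter drives in all cell types, and both ate tamoxifen chow for 2 wk before collection, whereas only the recent KO carried the floxed allele. Each recent KO sample pooled a pair of mice and each WT sample came from 1 mouse, so pooling and genotype cannot be told apart. Host cells were wild type for Mpc2, and no animal age is given in the sources used here.

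A cell enters mitosis when cyclin B and Cdk1 switch on together, after which the Polo-like and Aurora kinases build the spindle and correct faulty attachments of chromosomes. Kinetochores, protein layers on each centromere, hold the microtubules, and a checkpoint of Mad and Bub proteins blocks the anaphase-promoting complex until every chromosome is attached. Cdc20 then directs the destruction of cyclin B and securin, the chromatids part, and the midzone of the spindle guides cleavage of the cell. Most of these genes are transcribed late in the cycle, under the DREAM and B-Myb/FoxM1 complexes, which act through a short promoter element called the cell cycle genes homology region (CHR), often paired with CCAAT boxes bound by NF-Y.

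Those 2 elements were looked for in RefSeq promoters (GRCm38.p6), each running from 250 bases before to 50 bases after an annotated start. The table held 33 of the 40 members, in 35 windows. The CHR core was searched as TTTGAA and the box as CCAAT, both strands for each, and the matches overlapped each other in 1 of the 35 windows. A CHR core stood in 26 of the 35 windows (74.3%), against 17.9% of the 32851 promoters in the table. A CCAAT box also stood in 26 windows (74.3%, against 37.4%), and 22 windows held both (62.9%, against 6.95%). Among promoters of the 27 S phase reference genes in the table the CHR core was found in 13.3% of 30 windows and the CCAAT box in 76.7%. For 117 other mitotic genes and their regulators, from the 5 lists used below, there were 139 windows. The CHR core stood in 36.0% of them, the CCAAT box in 59.7% and both in 26.6%. A match is a description of the letters and does not show binding.

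Shown here are 120 bases before the start of genes that return below, on the coding strand, with CHR cores and CCAAT boxes in capitals. They include both genes whose groups did not overlap, Ccnb1 and Prc1. Each stretch reaches at most 30 bases into the gene as GENCODE draws it, so that of Ccnb1 ends 55 bases before its RefSeq start, with 30 bases inside the GENCODE gene. Those of Cdk1 and Prc1 have 26 bases inside and that of Cdc20 has 9.
Ccnb1 (chr13:100786541-100786660, minus strand): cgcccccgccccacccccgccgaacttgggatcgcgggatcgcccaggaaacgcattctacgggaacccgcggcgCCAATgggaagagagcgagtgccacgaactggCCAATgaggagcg
Cdk1 (chr10:69352913-69353032, minus strand): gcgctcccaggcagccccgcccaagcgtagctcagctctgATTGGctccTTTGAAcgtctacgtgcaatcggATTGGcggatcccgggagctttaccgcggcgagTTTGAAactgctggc
Cdc20 (chr4:118437344-118437463, minus strand): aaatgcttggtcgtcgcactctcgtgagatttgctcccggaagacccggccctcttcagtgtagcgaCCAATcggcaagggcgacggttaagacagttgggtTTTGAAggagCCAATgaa
Kif11 (chr19:37376262-37376381, plus strand): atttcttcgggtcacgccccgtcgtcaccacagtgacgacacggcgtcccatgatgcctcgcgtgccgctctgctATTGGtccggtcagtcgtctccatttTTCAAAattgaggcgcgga
Prc1 (chr7:80294356-80294475, plus strand): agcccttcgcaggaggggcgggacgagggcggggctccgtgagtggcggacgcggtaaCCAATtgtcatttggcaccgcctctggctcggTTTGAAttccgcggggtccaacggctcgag
Top2a (chr11:99024190-99024309, minus strand): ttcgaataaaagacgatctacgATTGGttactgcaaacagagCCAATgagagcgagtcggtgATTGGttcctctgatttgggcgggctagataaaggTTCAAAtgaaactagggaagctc
In Cdk1, Cdc20, Kif11, Prc1 and Top2a the stretch held at least 1 CHR core and at least 1 CCAAT box. The Ccnb1 window held CCAAT boxes at -99 and -67 from the start and no match to the CHR core. Over the members, the first base of the CHR core lay at a median of +3 and that of the CCAAT box at -67, while over all promoters the medians were -124 and -92.

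**Figure D1:**
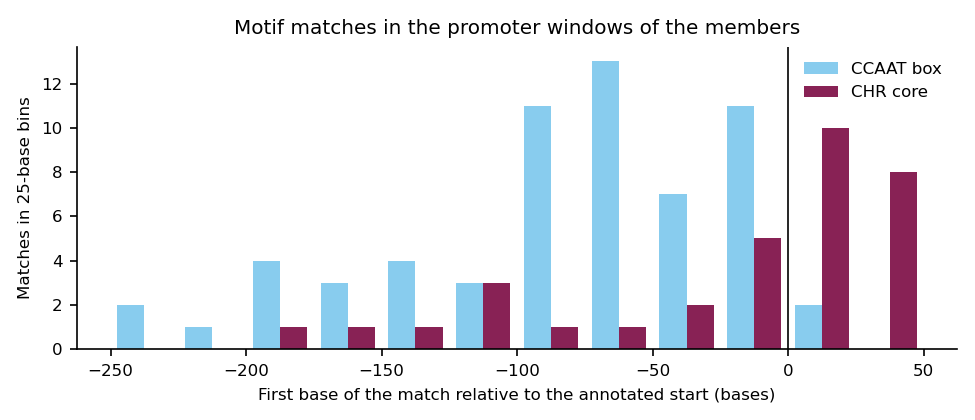
Position of CHR core matches (dark, 33 matches) and CCAAT box matches (light, 61 matches) in the 35 promoter windows of the members, counted in bins of 25 bases from the annotated start. CCAAT matches lie mostly upstream, and CHR matches gather around the start.

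Mpc2, the floxed gene, encodes a subunit of the carrier that takes pyruvate into mitochondria. It was at 61.0, 111, 95.2, 117 and 60.9 normalized CPM (counts scaled to library size) in WT and at 27.7, 17.1, 43.9, 37.0 and 35.0 in the recent KO. The groups did not overlap, and the log2 fold change was -1.46 ± 0.239 (SE, edgeR quasi-likelihood adjusted p = 0.0156). The call was lost, at an adjusted p of 0.0576 to 0.138, with a replicate block, a transcript length offset or limma on TPM (transcript abundance scaled to length and library), and by a narrow margin without recent KO replicate 1. Of the genes that define GMPs, Mpo was at 31826 to 69039 CPM. B lymphoid markers (8 genes, 3 of them at or under 3 reads in every sample, Ebf1 and Pax5 included) summed to 55.2 to 82.5 TPM over the 10 samples, and the 7 T and NK cell markers to 2780 to 4044 TPM, nearly all of it Nkg7. Over all tested genes 41 passed an adjusted p of 0.05 (0.331%), of which 15 were higher and 26 lower, and 301 (2.43%) had groups that did not overlap.

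Marker genes of several cell types differed between the genotypes. Summed TPM of 13 erythroid markers was 54.8 to 133 in WT and 81.8 to 554 in the recent KO, with replicates 3, 4 and 5 at 554, 388 and 338, and 6 of the 10 tested had an unadjusted p under 0.05 and were higher, while 1 (Tfrc) was lower at that p. The 13 GMP markers summed to 65050 to 85085 TPM in WT and 38542 to 70163 in the recent KO, 8 of them lower at that p and none past the adjusted threshold. Of the 13, 9 had a log2 fold change below 0 and 4 above 0, among the latter Cd34 (0.25), Cd27 (0.22) and Kit (0.08). Macrophage markers summed to 12.6 to 26.8 and 31.0 to 61.6 TPM, and 3 of 10 were called higher. At an unadjusted p under 0.05, 6 of 9 tested neutrophil markers were higher, 4 of 8 monocyte markers lower, and of 7 basophil, mast cell and megakaryocyte markers 4 higher and 1 lower, none past the adjusted threshold. Monocyte markers summed to 3714 to 5071 TPM in WT. In the recent KO they summed to 4411 and 5334 in replicates 1 and 2, and to 1119, 2611 and 2755 in replicates 3, 4 and 5. Of 6 tested stem cell and multipotent markers 2 were higher at that p, and of the 3 B lymphoid and 2 T and NK cell markers tested none reached it. The part of these shifts in the values of the mitotic genes was not tested, and in sorted bulk RNA fewer cells of a type and less RNA per cell cannot be told apart.

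No member passed the adjusted threshold, and most mitotic genes differed little between the groups. The count was 0 of 40 by edgeR's quasi-likelihood test, against 0.331% of all tested genes, with a lowest adjusted p of 0.298. It was also 0 by DESeq2 and limma. With so small a share over all genes, a count of 0 does not set the members apart. At an unadjusted p under 0.05 there were 3 members (7.5%, against 10.2% of all tested genes): Ccnb1 and Mad2l1, with higher means in the recent KO, and Prc1, with a lower mean. Groups did not overlap for 2 members (5.0%, against 2.43%), Ccnb1 higher in the recent KO (as were 1.11% of all tested genes) and Prc1 lower (1.32%). With a transcript length offset or on the TPM scale no member had groups that did not overlap.

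The median log2 fold change of the members was 0.01 (all tested genes 0.00), between -0.24 for Prc1 and 0.15 for Ccnb1. It was above 0 for 21 members and below 0 for 19, whereas on the TPM scale it was above 0 for 33 of the 40, at a median of 0.06 beside 0.05 over all genes tested. Without recent KO replicates 3, 4 and 5, left out together after seeing the data, it was above 0 for 14 and below 0 for 26, at a median of -0.04. The absolute log2 fold change was under 0.1 for 33 of 40 members (82.5%, against 48.2% of all tested genes), with a median of 0.0490 against 0.105. The tested genes include scarcer ones than the members, whose lowest group mean was 9.27 CPM. The median SD of log2 CPM between replicates was 0.187 over all tested genes and 0.136 over the 6803 in the members' range of CPM. The share under 0.1 among those 6803 genes was not computed. For 37 of 40 members the 95% interval of the fold change lay within 1.3-fold in either direction (all but Cdc25b, Knl1 and Prc1), and the outermost bounds over all members were 0.726 and 1.34. The share of other tested genes within that bound was not computed.

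**Figure D2:**
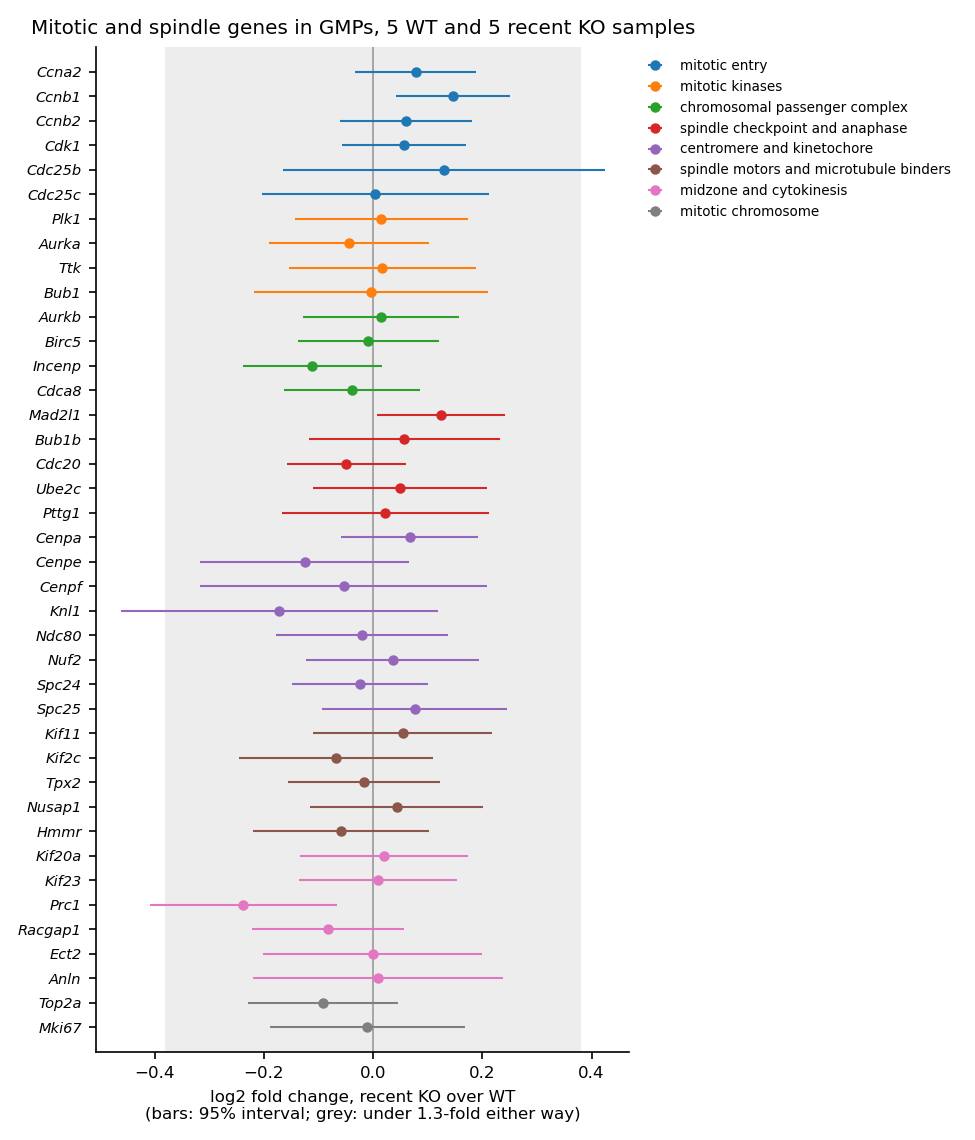
log2 fold change of each member, recent KO over WT (point), with its 95% interval (bar), coloured by role; the grey band marks less than 1.3-fold in either direction. Of the 40 intervals 37 lie inside the band, with Ccnb1 and Mad2l1 above 0 and Prc1 below 0 over their whole interval.

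Mitotic entry genes are those that start the process. All 6 had a log2 fold change above 0, at a median of 0.07 (5 or 6 of the 6 above 0 under the alternative settings). Of all 12381 tested genes 6135 were above 0. Only 1 of the 6, Ccnb1, had an unadjusted p under 0.05 by edgeR's quasi-likelihood test, and Cdc25c was at a log2 fold change of 0.0039. Ccnb1 encodes cyclin B1, the partner that activates Cdk1, and lies on chromosome 13 (100778650 to 100786570, minus strand, GRCm38). It was at 213, 227, 217, 220.4 and 219 CPM in WT and at 242, 251, 241, 248 and 230.5 in the recent KO. Every recent KO sample lay above every WT sample, by a narrow margin of 230.5 against 227. The log2 fold change was 0.15 ± 0.0485 (SE, 95% interval 1.03- to 1.19-fold), with an unadjusted p of 0.00977 and an adjusted p of 0.298 by edgeR's quasi-likelihood test. Transcripts of 4 pseudogenes match Ccnb1 over at least 300 bases at 95% identity or more, and none reached a group mean above 0.0439 CPM. Other members shared sequence with genes that were more abundant relative to the member. The main Ccna2 transcript had 431 bases in a transcript of Exosc9 (57.0% of the CPM of Ccna2) and that of Kif20a 507 bases in Cdc23 (106%). That of Ndc80 had 303 bases in the pseudogene 2700099C18Rik (37.5%), so the values of Ccna2, Kif20a and Ndc80 are less certain. In all, 6 members overlap a gene on the other strand at 1 CPM or more. Among them, Cdc20 overlaps Elovl1 (193 CPM) and Cdca8 overlaps 9930104L06Rik (5.87 CPM), with no match of at least 300 bases found.

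Cdk1, the kinase that drives entry, was at 296, 287, 302, 284 and 295 CPM in WT and at 328, 299.5, 295, 288 and 311 in the recent KO. The groups overlapped, with recent KO replicate 1 the highest, and the log2 fold change was 0.06 ± 0.0528 (SE). Ccna2, cyclin A2 of S phase and early mitosis, was at 152, 143, 143, 157 and 148 CPM in WT and at 154, 159.9, 165, 151 and 155 in the recent KO. Its groups overlapped at a log2 fold change of 0.08 ± 0.0513. Ccnb2, a second B-type cyclin, was at 172, 157, 165, 153 and 165 CPM in WT and at 176, 176, 154, 169.9 and 172 in the recent KO. The log2 fold change was 0.06 ± 0.0561, with recent KO replicate 3 inside the WT range. Among the phosphatases that activate Cdk1, the transcripts of Cdc25b and Cdc25c were scarce, at 3.1 ± 0.474 and 7.2 ± 0.391 TPM in WT (SD, n = 5).

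**Figure D3:**
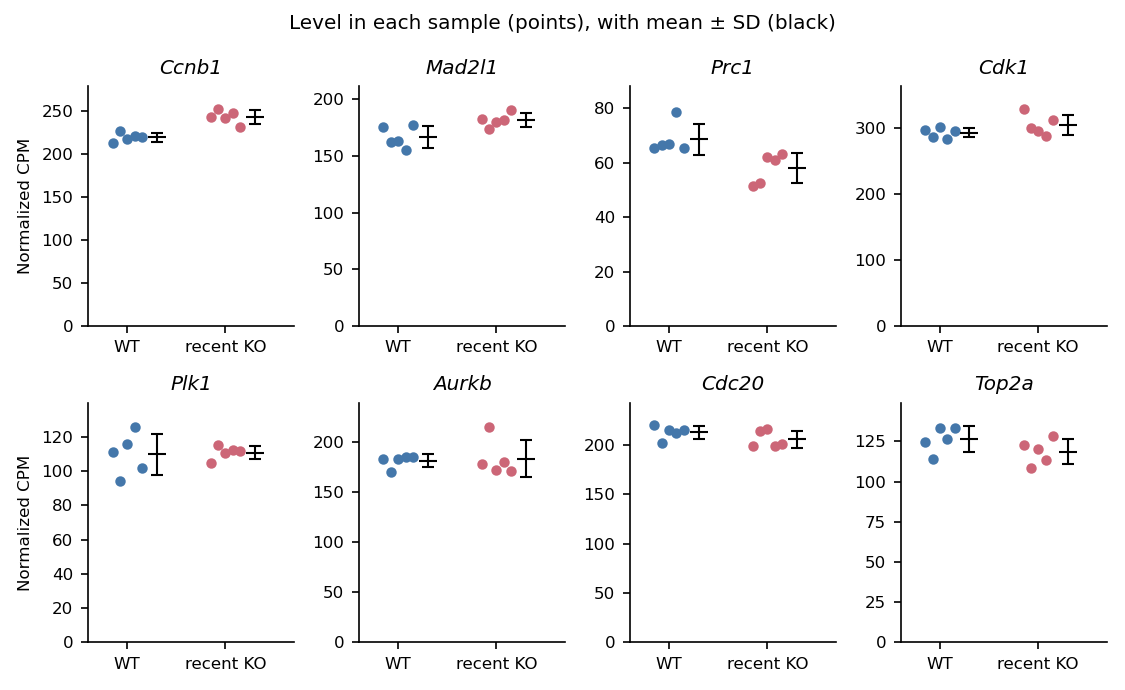
Normalized CPM of 8 members in each sample (points, 5 WT and 5 recent KO), with the mean and SD in black; each vertical axis starts at 0. The groups separate for Ccnb1 and Prc1 and overlap for Mad2l1, Cdk1, Plk1, Aurkb, Cdc20 and Top2a.

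Mitotic kinases showed no member at an unadjusted p under 0.05. Plk1, the Polo-like kinase of centrosome maturation and cytokinesis, was at 111, 94.1, 116, 126 and 102 CPM in WT and at 104, 115, 110.4, 112 and 111 in the recent KO. The recent KO samples lay within the WT range, and the log2 fold change was 0.01 ± 0.0736 (SE). Aurka, the kinase of spindle poles, was the most abundant of the other three at 56.6 ± 4.26 TPM in WT and 57.6 ± 3.10 in the recent KO (SD, n = 5 each). The checkpoint kinases Ttk and Bub1 were at 6.3 ± 0.149 and 6.5 ± 0.627 TPM in WT.

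The chromosomal passenger complex corrects wrong attachments and then moves to the midzone. Aurkb, its kinase, was at 183, 171, 183, 185 and 185 CPM in WT and at 178, 215, 172, 180.1 and 171 in the recent KO. Apart from replicate 2, the recent KO samples lay between 171 and 180.1, and the log2 fold change was 0.01 ± 0.0668 (SE). Incenp, the scaffold of the complex, was at 77.6, 70.5, 76.7, 75.5 and 74.2 CPM in WT and at 67.1, 75.5, 70.0, 69.6 and 64.6 in the recent KO. Of the recent KO samples 4 lay below every WT sample, at a log2 fold change of -0.11 ± 0.0592 and an unadjusted p of 0.0819 by edgeR's quasi-likelihood test. With a transcript length offset the Incenp value turned to 0.04, and on the TPM scale to 0.10. Birc5, which encodes survivin, and Cdca8, which encodes borealin, target the complex to centromeres and were at 337 ± 23.5 and 119.8 ± 12.3 TPM in WT, and at 344 ± 8.06 and 121 ± 9.48 in the recent KO (SD, n = 5 each).

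Spindle checkpoint and anaphase genes included Mad2l1, which encodes the Mad2 protein that holds Cdc20 inactive. It was at 176, 162, 163, 155 and 177 CPM in WT and at 182, 174, 179.7, 182 and 191 in the recent KO. Recent KO replicate 2 lay below WT replicates 1 and 5, so the groups overlapped, and the log2 fold change was 0.12 ± 0.0545 (SE, unadjusted p = 0.0382, edgeR quasi-likelihood adjusted p = 0.450). Cdc20, the activator of the anaphase-promoting complex, was at 219, 202, 215, 212 and 214 CPM in WT and at 199, 214, 216, 198 and 200.5 in the recent KO. Its log2 fold change was -0.05 ± 0.0509, and on the TPM scale it was 0.00. Ube2c, the ubiquitin-conjugating enzyme of that complex, had the highest TPM of the 40 members, at 428 ± 16.1 in WT and 458 ± 28.9 in the recent KO (SD, n = 5 each). Securin (Pttg1) stood at 98.8 ± 13.3 and 101.8 ± 6.98 TPM, and the checkpoint protein BubR1 (Bub1b) at 11.7 ± 2.50 and 11.6 ± 1.53.

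Centromere and kinetochore genes had 3 log2 fold changes above 0 and 5 below, none at an unadjusted p under 0.05. Cenpa, the histone variant that marks the centromere, was at 162, 163, 171, 154 and 157 CPM in WT and at 187, 169, 156, 169.7 and 165 in the recent KO. The groups overlapped, with recent KO replicate 1 the highest of the 10 samples and a log2 fold change of 0.07 ± 0.0581 (SE). Cenpe, a kinetochore motor, was at 42.7, 31.8, 40.4, 42.8 and 45.2 CPM in WT and at 35.0, 35.9, 38.3, 38.4 and 38.2 in the recent KO. WT replicate 2 was the lowest sample and the other WT samples lay above all recent KO samples, at a log2 fold change of -0.13 ± 0.0888.

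Knl1, the scaffold on which Bub proteins gather, was at 45.3, 28.3, 32.5, 34.4 and 48.4 CPM in WT and at 32.2, 30.8, 32.5, 32.5 and 39.6 in the recent KO. WT replicates 1 and 5 stood above all other samples, and the log2 fold change was -0.17 ± 0.135 (SE). Ndc80, the subunit that grips microtubules, was at 34.7, 31.7, 32.6, 32.4 and 28.7 CPM in WT and at 28.5, 32.5, 30.3, 33.2 and 33.2 in the recent KO. Its groups overlapped fully at a log2 fold change of -0.02 ± 0.0732 (0.04 on the TPM scale). The other Ndc80 complex subunits Nuf2, Spc24 and Spc25 were at 24.3 ± 2.42, 143.6 ± 10.1 and 64.7 ± 5.03 TPM in WT (SD, n = 5). The long coiled-coil gene Cenpf was at 5.3 ± 2.15 TPM, and its WT samples spread as Knl1 did, with replicates 1 and 5 high.

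Spindle motors and microtubule binders were among the members at low TPM. Kif11, the motor that pushes the spindle poles apart, was at 29.9, 31.6, 33.7, 34.1 and 28.2 CPM in WT and at 29.6, 31.3, 34.7, 33.4 and 34.4 in the recent KO. The groups overlapped at a log2 fold change of 0.05 ± 0.0763 (SE). The microtubule depolymerase Kif2c was at 12.8 ± 1.12 TPM in WT, and the spindle assembly factors Tpx2, Nusap1 and Hmmr at 14.2 ± 0.836, 17.5 ± 1.80 and 9.9 ± 1.12 (SD, n = 5).

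Midzone and cytokinesis genes included the member with the lowest log2 fold change. Prc1 encodes the protein that bundles antiparallel microtubules between the parting chromosomes, and lies on chromosome 7 (80294450 to 80316259, plus strand, GRCm38). It was at 65.4, 66.3, 66.8, 78.8 and 65.3 CPM in WT and at 51.5, 52.7, 61.9, 61.1 and 63.1 in the recent KO. Every recent KO sample lay below every WT sample, by 63.1 against 65.3 at the nearest. The log2 fold change was -0.24 ± 0.0799 (SE, 95% interval 0.753- to 0.955-fold), with an unadjusted p of 0.0103 and an adjusted p of 0.302 by edgeR's quasi-likelihood test. Kif23, the midzone motor of the centralspindlin complex, was at 32.3, 33.3, 36.3, 33.7 and 34.3 CPM in WT and at 33.2, 31.3, 36.1, 36.5 and 33.7 in the recent KO. Its log2 fold change was 0.01 ± 0.0673, while its partner Racgap1 was at 24.0 ± 2.33 TPM in WT and 24.4 ± 1.84 in the recent KO. The midzone motor Kif20a, the cytokinesis exchange factor Ect2 and the furrow scaffold anillin (Anln) were at 13.2 ± 1.46, 5.8 ± 1.47 and 2.9 ± 0.435 TPM in WT (SD, n = 5).

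The surroundings of Prc1 were examined after its value was seen. Both groups carried the same strain label, and whether their chromosomes differ in sequence in this region was not tested. The gene with the smallest adjusted p of all those tested, Hddc3, began 26.8 kb beyond Prc1 and was at 28.3 ± 1.86 CPM in WT and 4.88 ± 0.841 in the recent KO (SD, n = 5 each, log2 fold change -2.52, edgeR quasi-likelihood adjusted p = 5.43e-08). Of 12 tested neighbours within 100 kb, 7 had lower means, 5 had an unadjusted p under 0.05 (Ngrn, Rccd1, Hddc3, Fes and Furin, all lower) and only Hddc3 was called. Rccd1 overlaps Prc1 on the other strand, and 670 bases of the main Prc1 transcript also occur in a transcript of it. With a kit that does not mark strand, reads from that stretch cannot be told apart, and Rccd1 was at 16.8 ± 3.37 CPM in WT and 13.3 ± 1.48 in the recent KO (SD, n = 5 each). Around Ccnb1, 1 of 5 tested neighbours within 100 kb had an unadjusted p under 0.05 and none was called. No other member had a called gene within 1000 kb, the next nearest being Aurkb at 1079 kb.

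**Figure D4:**
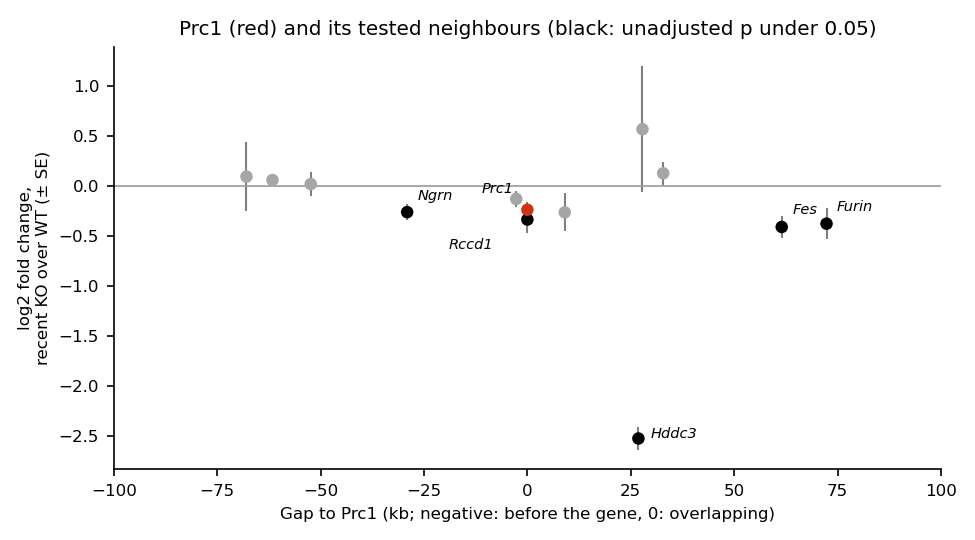
log2 fold change (± SE), recent KO over WT, of Prc1 (red) and its 12 tested neighbours within 100 kb, against the gap to Prc1; black points had an unadjusted p under 0.05. Hddc3, at -2.52, stands far below the other genes, and Ngrn, Rccd1, Fes and Furin lie below 0 with Prc1.

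Top2a and Mki67 act on the mitotic chromosome itself. Top2a, the topoisomerase that untangles sister chromatids, was at 125, 114, 133, 127 and 133 CPM in WT and at 123, 108, 120.1, 113 and 128 in the recent KO. The groups overlapped at a log2 fold change of -0.09 ± 0.0636 (SE). Mki67, whose Ki-67 protein coats chromosomes and serves as a marker of dividing cells, was at 54.9, 58.6, 71.4, 61.9 and 67.7 CPM in WT and at 68.9, 60.1, 63.8, 55.4 and 64.0 in the recent KO. Its log2 fold change was -0.01 ± 0.0831, a value whose sign changed with the length offset and on the TPM scale.

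Summed over the 40 members, the TPM of a sample was 2798, 2543, 2524, 2472 and 2672 in WT and 2583, 2774, 2755, 2784 and 2834 in the recent KO. The ranges overlapped, with a ratio of means of 1.06 in TPM and 1.01 in normalized CPM. The 34 S phase reference genes summed to 2484 ± 171 TPM in WT and 2689 ± 134 in the recent KO (SD, n = 5 each), so the ratio of the mitotic to the S phase sum was 1.05 ± 0.0290 in WT and 1.02 ± 0.0419 in the recent KO. WT samples differed among themselves, since 9 of the 40 members stood above their WT mean in WT replicate 2 and 30 of them in WT replicate 3. In the recent KO that number was between 17 and 27.

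Replicates agreed closely for these genes. The SD of log2 CPM between replicates had a median of 0.105 over the members, 0.102 over the S phase genes and 0.187 over all tested genes, or 0.136 over the 6803 tested genes in the members' range of CPM. Ccnb1 had the smallest replicate SD of the 40 members, at 0.0414, and Knl1 the largest, at 0.249. Members did not move together strongly within groups, as the median Pearson r over 780 pairs was 0.0854 in 10 samples, beside 0.0899 for the S phase genes and 0.00 over all tested genes. Against the mean of the other members, r was highest for Plk1 (0.77), Cdca8 (0.74) and Kif20a (0.68) and lowest for Ccnb1 (-0.73) and Spc24 (-0.50). All genes of a sample come from 1 library and share its depth and normalization.

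**Figure D5:**
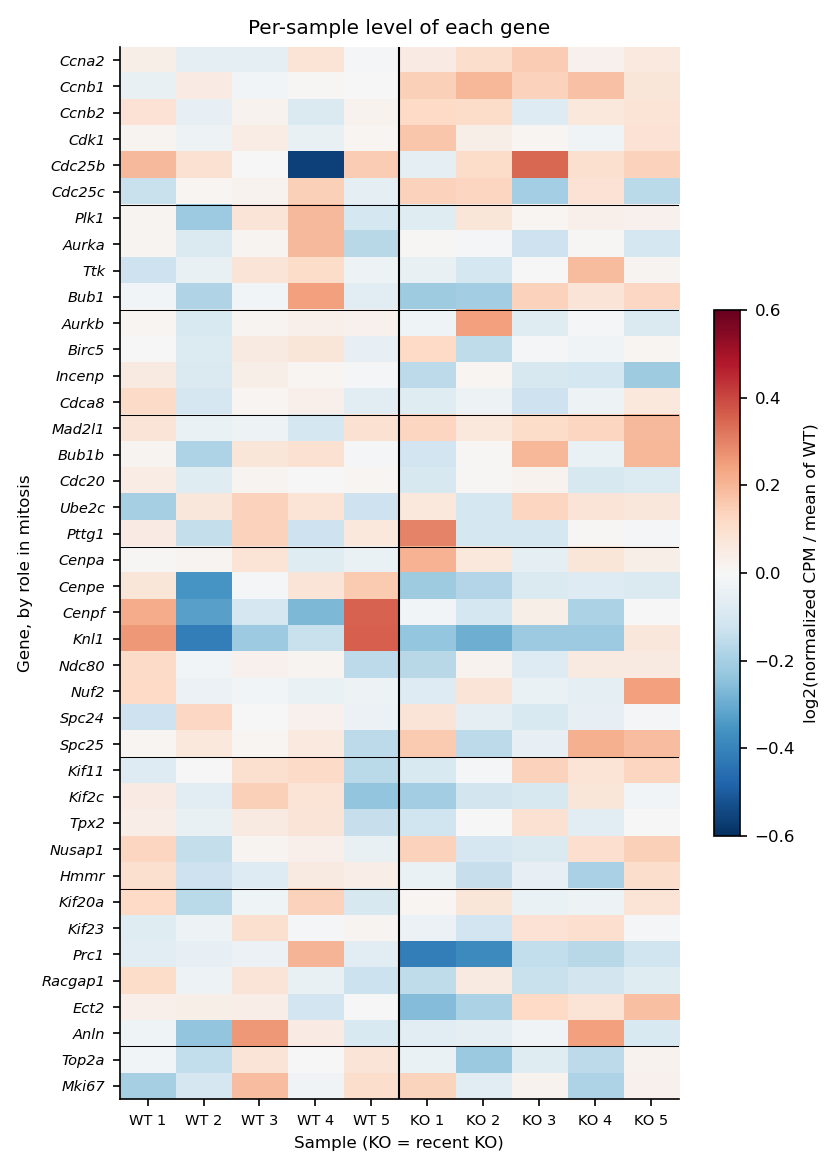
log2 of normalized CPM over the WT mean for the 40 members (rows, by role) in the 5 WT and 5 recent KO samples (columns), with red above and blue below the WT mean. WT replicate 2 is below the WT mean for most members, Ccnb1 is red and Prc1 blue in all 5 recent KO samples, and Knl1 and Cenpf are high in WT replicates 1 and 5.

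Transcript shares were compared for 59 transcripts of 38 members with at least 100 reads a gene and a mean share of 10% or more. By an exact permutation test on 5 against 5 samples, 0 passed an adjusted p of 0.05 (lowest 0.815) and 2 had an unadjusted p under 0.05, both of Cenpa. Cenpa-205 took 40.6% ± 1.96 of the gene's reads in WT and 44.2% ± 1.81 in the recent KO (SD, n = 5 each, exact p = 0.0238).

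Further genes of mitosis and its control were taken from 5 hand-written lists of 140 genes in all. None was called (0.331% of all tested genes were), and the median log2 fold change was 0.02. Groups did not overlap for 3 genes that were higher in the recent KO and 1 that was lower (all tested genes 1.11% and 1.32%). At an unadjusted p under 0.05 there were 5 with a higher and 2 with a lower mean. Such a p was found for 10.2% of all tested genes, 605 with a higher and 663 with a lower mean. In the list of condensin, cohesin and chromatid separation, 1 of 21 genes reached that p: the cohesin subunit Stag2, at 22.7 ± 0.839 CPM in WT and 26.8 ± 0.926 in the recent KO (SD, n = 5 each, log2 fold change 0.24, edgeR quasi-likelihood adjusted p = 0.186). The other two with the smallest p were Smc4 of condensin (-0.15) and Smc3 of cohesin (-0.21).

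Among 31 other centromere and kinetochore genes the one at an unadjusted p under 0.05 was Oip5, a factor that helps load Cenpa, at 26.8 ± 1.80 CPM in WT and 32.1 ± 1.89 in the recent KO (SD, n = 5 each, log2 fold change 0.26). Cenpt, a kinetochore gene of that list, was at -0.17. Oip5 overlaps Nusap1 on the other strand. Of 36 other spindle, centrosome and cytokinesis genes Kif15, a spindle motor, was at -0.18 (0.13 on the TPM scale), Plk4, the kinase of centriole duplication, at -0.16, and Kif14 at -0.30 with groups that did not overlap.

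Of 30 other kinases, phosphatases and subunits of the anaphase-promoting complex, 4 had an unadjusted p under 0.05. The kinase Pbk was at 129 ± 5.80 CPM in WT and 146 ± 8.91 in the recent KO (SD, n = 5 each, log2 fold change 0.19, groups that did not overlap), the phosphatase subunit Ppp2r5c at a log2 fold change of 0.15 and the complex subunit Anapc11 at -0.17. The 22 regulators (DREAM, MuvB, FoxM1 and E2F genes) held none at that p, with E2f6 at 0.21, Lin37 at 0.15 and Tfdp1 at -0.08.

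Outside mitosis, 1 of 18 tested G1 genes had an unadjusted p under 0.05: Cdkn2c, an inhibitor of the G1 kinases Cdk4 and Cdk6, at 19.8 ± 2.53 CPM in WT and 15.7 ± 1.60 in the recent KO (SD, n = 5 each, log2 fold change -0.34, edgeR quasi-likelihood adjusted p = 0.253). Ccnd1 was at 0.41 and Btg2 at -0.50 on the log2 scale, with groups that overlapped. None of the 34 S phase genes reached that p, and the 3 with the smallest were Pcna (0.11), Pole (0.19) and Rfc3 (0.13), with 23 of the 34 above 0 at a median of 0.02.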

How the data were processed

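RNA from CD45.2+ GMPs was extracted (NucleoSpin RNA XS), amplified with SMARTseq V4 and sequenced as paired ends. The deposited files hold, for each transcript, the estimated count and the TPM value that the authors obtained with Salmon 1.5.1 against GENCODE M27. DESeq2 (entry 2.11.40.6) is named in the submitters' processing notes, and the authors' table of its output (mean counts, fold changes, errors and p-values of their own comparison) was not used.

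Both measures were summed per gene through GENCODE M21, which matched 97.4% of 140789 transcripts (unmatched, 0.348 to 0.390% of reads, not used here). Totals ran from 14033776 to 19745405 estimated reads a sample. Estimated counts were rounded, filtered with edgeR 4.0.16 filterByExpr (minimum count 10), normalized by TMM and tested with the quasi-likelihood model (WT and recent KO, no covariate, Benjamini-Hochberg over 12381 genes, threshold 0.05); CPM values are TMM-normalized. The code was tested on simulated data. Libraries within a group differed by more than counting noise (chi-square per gene 6.80 to 46.1).

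The 40 members, role classes and gene lists were chosen with earlier results of these data known. All members were named, and values in every sample are given for the 5 members with the smallest p in each direction and 10 set by function (Ccnb1, Cdk1, Plk1, Aurkb, Cdc20, Ndc80, Kif11, Kif23, Top2a and Mki67). Of each other list the genes past 0.05, or up to 3 with the smallest p, were named (1 of these is not reported here).

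Near-identical copies were sought with BLAST 2.17.0 (at least 95% identity over 300 bases). Alternatives were RLE scaling, no filter, DESeq2 1.42.0, limma 3.58.1 on log2(TPM + 1) and log2(TPM + 0.1), a transcript length offset, a replicate block, each sample left out, and, chosen after seeing the data, recent KO replicates 3, 4 and 5 left out together.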

Additional observations from a re-analysis of the deposited data

Results flagged for a closer look

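Among 124 groups of 5 samples (the members, Mpc2 and the other named genes in each genotype), 11 held a sample whose gap to its nearest neighbour exceeded Dixon's limit of 0.71 of the group's range, where chance gives about 1 in 20. All values are normalized CPM. Aurkb was at 171 in WT replicate 2 (others 183 to 185) and at 215 in recent KO replicate 2 (others 171 to 180.1). Prc1 was at 78.8 in WT replicate 4 (others 65.3 to 66.8), the highest WT value of that gene. Pttg1 was at 70.0 in recent KO replicate 1 (others 52.9 to 57.2), and Knl1 at 39.6 in recent KO replicate 5 (others 30.8 to 32.5). Nuf2 was at 62.0 in WT replicate 1 (others 55.6 to 56.5), Spc25 at 78.0 in WT replicate 5 (others 87.8 to 90.8) and Ect2 at 20.3 in WT replicate 4 (others 22.0 to 22.6). Anln was at 17.8 in recent KO replicate 4 (others 14.1 to 14.8), Kif14 at 4.57 in WT replicate 3 (others 3.17 to 3.42) and Pole at 19.2 in recent KO replicate 4 (others 21.8 to 22.4).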

How the results depend on the processing

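No member was called under any of the 18 alternatives, where the lowest adjusted p of a member was 0.120, and Ccnb1 and Prc1 kept the sign of their log2 fold change under each. Their unadjusted p stayed under 0.05 in 15 and 18 of the alternatives, and that of Mad2l1 in 5. Where a value below changed, the cause was not tested.

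The number of genes called, 41, was 206 with no filter on low counts, 156 by DESeq2, 25 and 24 by limma on log2(TPM + 1) and log2(TPM + 0.1), 20 with the replicate block and 16 without recent KO replicates 3, 4 and 5 (added after seeing the data). It ran from 25 without recent KO replicate 3 to 91 without recent KO replicate 2. The members without overlap, 2, were 0 on the TPM scale and 0 with the length offset. They were 2 to 4 with 1 sample left out (4 without recent KO replicate 2) and 5 without recent KO replicates 3, 4 and 5. Smaller groups separate more easily, and the share over all tested genes was not computed for these counts. The median log2 fold change of all 40 members was 0.059 and 0.065 by limma with the larger and the smaller pseudocount. On that TPM scale the median over all genes tested was also above 0. Elsewhere the members' median kept within 1 replicate SD, at -0.039 without recent KO replicates 3, 4 and 5. The summed level gave a ratio of 1.01 to 1.08 over its alternatives.

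For Mpc2 the log2 fold change was -1.35 and -1.38 by limma, -1.40 with the length offset, -1.46 with the replicate block and -1.99 without recent KO replicates 3, 4 and 5, none of them past an adjusted p of 0.05. It was -1.60 to -1.31 with 1 sample left out, and the call was lost without recent KO replicate 1.

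Kif15, at -0.18 in the main analysis, and Incenp, at -0.11, changed sign, as did members closer to 0. By limma (larger, then smaller pseudocount) they were Incenp at 0.096 and 0.098, Cdc20 at 0.0025 and 0.0025, Ndc80 at 0.037 and 0.040, Mki67 at 0.059 and 0.070, and Kif15 at 0.127 and 0.135. With the length offset Incenp was at 0.039, Mki67 at 0.0061 and Kif15 at 0.075. Without recent KO replicates 3, 4 and 5 Plk1 was at -0.0071, Kif11 at -0.058, Kif23 at -0.083 and Mki67 at 0.028. With 1 sample left out, Plk1 ran from -0.036 to 0.067, Aurkb from -0.050 to 0.039, Ndc80 from -0.056 to 0.012, Kif23 from -0.016 to 0.037 and Mki67 from -0.057 to 0.039.

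Replicate numbers are shared by the groups but do not pair them: the deviations of samples with the same number correlated at -0.174 to 0.0366, and no sample correlated best with its own number. The block changed no call among the members. Each member had at least 81 reads in every sample, the fewest for Cdc25b, which also had the largest SE (0.137).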
